A study of Xenopus laevis with 42 samples.

Results

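The transcripts described here are the rows of the deposited tables named hk1, hk2, gpi, aldoa, aldoc, gapdh, pgk1, eno1, pkm or ldhb with a final L or S, which marks the copy on the long or the short subgenome of the allotetraploid frog Xenopus laevis. They were chosen by name, and 17 of 44962 rows met the rule. Both copies were present for 8 symbols, aldoc had its L copy, and pgk1 was not analysed here. All 17 rows reached 1 TPM (an abundance per transcript length, scaled to a fixed total in each column) in at least 1 column.

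Glycolysis turns glucose into pyruvate in the cytosol, and its enzymes are encoded by genes that are active in nearly all cells but at levels that differ widely between tissues. Hexokinases take in glucose by phosphorylating it, glucose-6-phosphate isomerase and aldolase bring the sugar to the point where it is split, and glyceraldehyde-3-phosphate dehydrogenase, enolase and pyruvate kinase carry the payoff steps. Lactate dehydrogenase then exchanges pyruvate with lactate. A frog embryo starts with messages for these enzymes that were stored in the egg and later replaces them with its own.

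The tissue is the lineage of D1, a dorsal-animal blastomere of the 8-cell embryo that gives rise to part of the neural plate. In explants, D1 was taken out of the embryo and kept apart from it, while in progeny D1 was marked with a fluorescent dye inside the embryo and its descendants were dissected later. Explants and progeny were each collected at 8-cell (Nieuwkoop-Faber stage 4, 2 hours 15 minutes), 16-cell (stage 5, 2 hours 45 minutes), 32-cell (stage 6, 3 hours), blastula (stage 8, 5 hours), gastrula (stage 11, 11 hours), early neurula (stage 14, 16 hours) and finally mid neurula (stage 17, 18 hours). Each of the 14 groups had samples from 3 frogs, and the authors deposited 1 combined value per gene and group. Nothing in the labels gives a strain, a genotype or a treatment other than the dye or the removal of the cell.

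There was therefore 1 value per row, tissue and stage. No spread between frogs and no test was available, the depth is unknown, and no difference below has a replicate check. A row is called higher or lower, or said to rise or fall, where log2(TPM + 1) was 1 or more apart, a 2-fold step after adding 1 TPM, which understates the change of low rows. A share of all rows past the same size is given beside the counts. The explant 8-cell column stood apart from its neighbours: 2083 rows of all kinds rose and 159 fell between it and 32-cell, and 54 rose between 16-cell and 32-cell. After scaling by median ratios, which sets the columns to a common median ratio, 621 rows rose and 838 fell between 8-cell and 32-cell, so the direction of that step depends on the scaling. By markers, mid neurula explants held epidermal transcripts (krt12.S at 6538 TPM, against 1282 in progeny) and progeny held muscle transcripts (actc1.L at 61.2 TPM in explants, against 2415 in progeny), while sox2.S of the neural plate was at 100.2 TPM in explants and 209.6 in progeny. In tissue pieces of mixed cells, fewer cells of a type and less RNA per cell cannot be told apart.

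**Figure D1:**
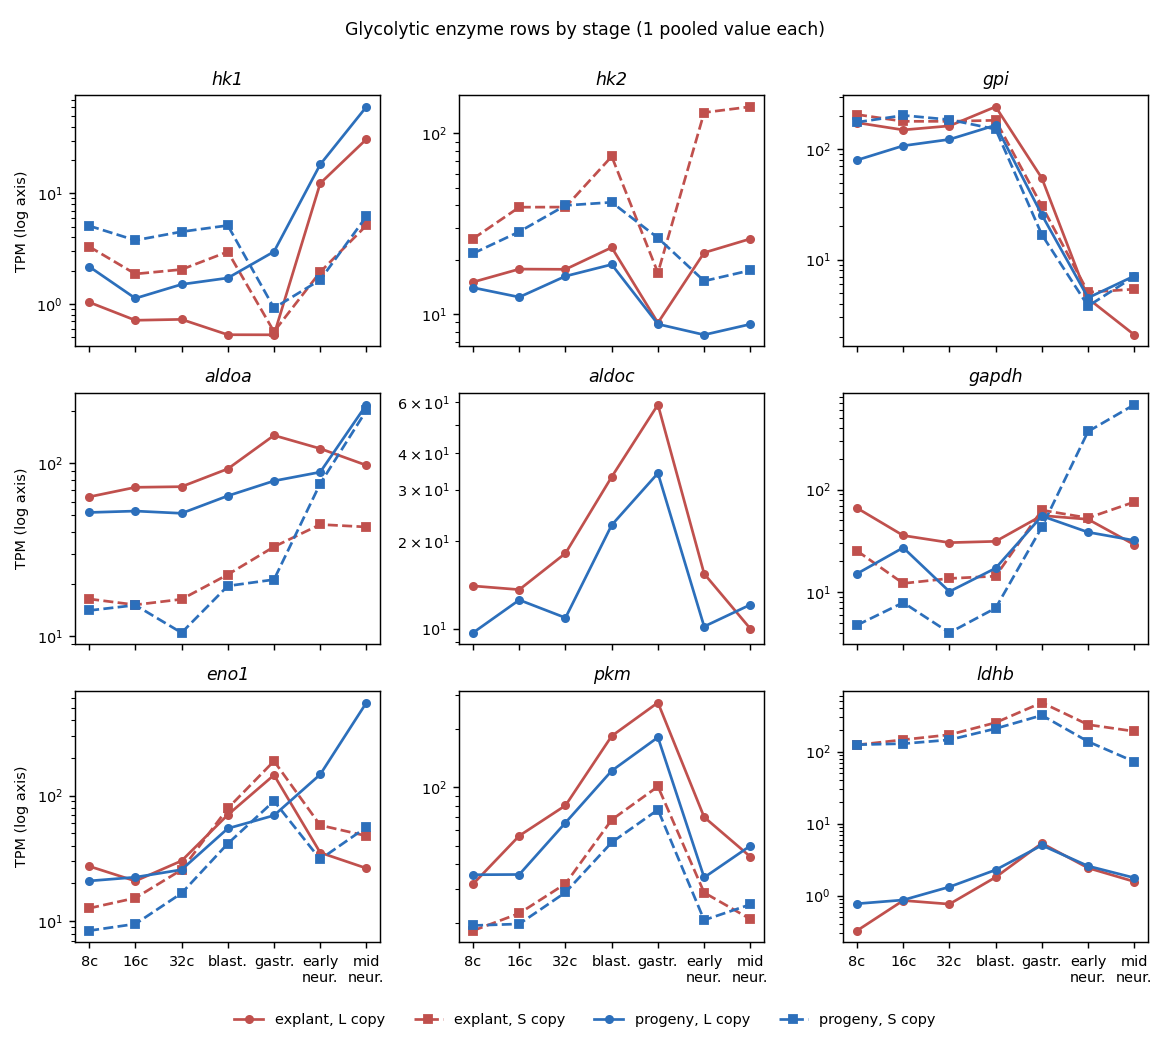
TPM (log axis) of each row against stage, 1 panel per enzyme gene, with explants in red and progeny in blue, solid lines for L copies and dashed lines for S copies; each point is 1 pooled value. hk2.S reached 141 TPM in mid neurula explants and 17.5 in progeny, while gapdh.S was at 75.8 TPM in explants and 675 in progeny.

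The hexokinases parted by isoform in the neurula. The row hk2.S, a copy of the gene for hexokinase 2, which in mammals binds the mitochondrial surface, stood in explants at 26.1 TPM at 8-cell, 39.1 at 16-cell, 39.1 at 32-cell, 74.6 at blastula, 16.9 at gastrula, 131 at early neurula and 141 by mid neurula. In progeny hk2.S stood at 21.7, 28.6, 40.0, 41.6, 26.4, 15.2 and 17.5 TPM at the same stages. The tissues lay under 2-fold apart up to gastrula and then separated, with explants 8.56 times the TPM of progeny at early neurula and 8.05 times at mid neurula. Its log2 difference, explant minus progeny, was 3.02 and 2.94 at these stages, higher than that of 99.2% and 99.1% of all rows. The other copy, hk2.L, followed at a lower level, with 21.9 and 26.1 TPM in early and mid neurula explants, against 7.68 and 8.79 TPM in progeny, log2 differences of 1.40 and 1.47.

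The rows of hk1, the gene for hexokinase 1, the form of most adult tissues in mammals, behaved otherwise. In explants hk1.L was between 0.53 and 1.04 TPM from 8-cell to gastrula, then at 12.3 at early neurula and 30.9 at mid neurula. In progeny it was between 1.13 and 2.98 TPM up to gastrula, then at 18.2 and 60.6. So hk1.L rose in both tissues between gastrula and mid neurula, by 4.38 on the log2 scale in explants and 3.95 in progeny. It was lower in explants at gastrula, at 0.53 TPM against 2.98 in progeny, a log2 difference of -1.38. At mid neurula the difference of -0.95 was under 2-fold. The copy hk1.S was under 7 TPM throughout and under 2-fold apart between the tissues at all 7 stages.

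The makeup of the hk1 and hk2 messages therefore differed between the tissues. TPM is scaled per length, so the 4 rows can be summed. The sum was 167 TPM in early neurula explants and 42.8 in progeny, and 203 TPM in mid neurula explants and 93.0 in progeny. Rows of hk2 made up 82.2% of it in mid neurula explants and 28.2% in mid neurula progeny. Up to gastrula hk2 held between 90.5% and 96.6% of it in explants and between 83.1% and 90.3% in progeny. These shares lie within 1 column and do not depend on the scaling between columns. They are shares of hk1 and hk2 alone and leave out hkdc1, of the hexokinase family. The row hkdc1.S was at 102 TPM in early neurula explants and 48.7 in progeny, and at 74.1 and 30.2 at mid neurula. Its other copy hkdc1.L was at 9.25 TPM in early neurula explants and 29.2 in progeny, and at 14.1 and 20.3 at mid neurula.

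**Figure D2:**
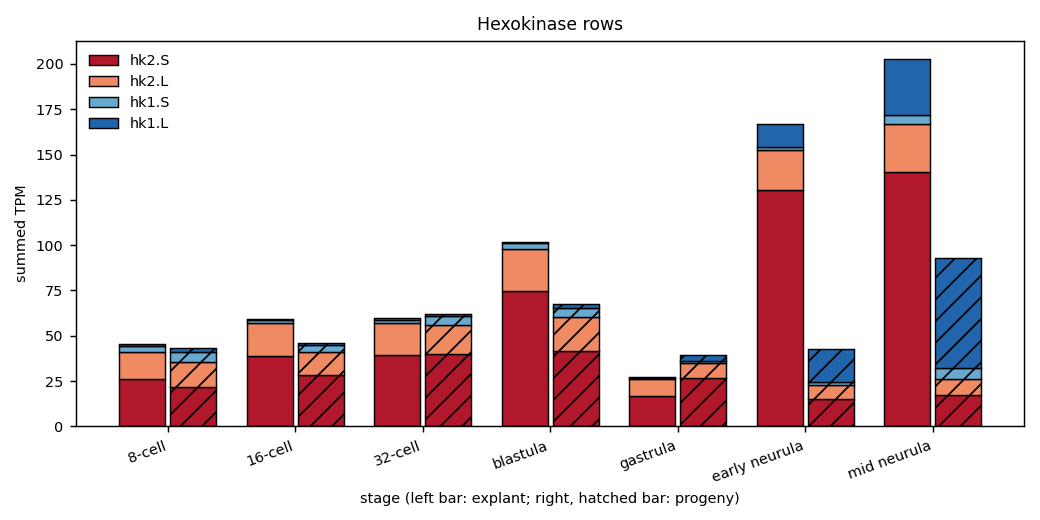
Summed TPM of the 4 rows of hk1 and hk2 at each stage, with colours for the rows. Explants are plain bars on the left and progeny hatched bars on the right of each pair. The hk2 rows fill most of each explant bar, and in progeny hk1.L reached 60.6 TPM at mid neurula, against 26.3 TPM for both hk2 rows.

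Transcripts of multiciliated cells were higher in explants at the neurula stages, as hk2 was. The 18 rows of that marker list summed to 2019 TPM in early neurula explants and 249 in progeny, and to 2755 TPM in mid neurula explants and 469 in progeny. Before gastrula the sums lay between 144 and 193 TPM in explants and between 156 and 183 in progeny. At gastrula the list was already higher in explants, at 399 TPM against 185 in progeny. There 5 of 17 tested rows were higher and 0 lower, where 2.20% and 3.42% of all rows were. The hk2 rows summed to 25.9 TPM in gastrula explants and 35.2 in gastrula progeny. Of these 17 marker rows, 15 were higher and 1 lower in explants at early neurula, and 15 higher and 2 lower at mid neurula; of all rows 10.9% were higher and 12.9% lower at early neurula, and 12.0% and 13.6% at mid neurula. The only row of the multiciliated list at 0 in a neurula column was tubb4b.L, at mid neurula in both tissues. At early neurula 13 of 18 ionocyte marker rows and 13 of 17 epidermal ones were higher in explants, with 0 lower. At mid neurula 15 of 18 ionocyte marker rows were higher in explants, as were 11 of 17 epidermal ones, with 2 of these lower. Epidermal rows summed to 20311 TPM in early neurula explants and 3848 in progeny, and to 13198 and 6386 at mid neurula. Of these rows, xepsin.S was at 0 in early neurula explants and krt.S in mid neurula explants. Ionocyte rows summed to 650 and 63.7 TPM, and to 1089 and 145. The part of these cell types in the hk2 values was not tested.

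The gene gpi encodes glucose-6-phosphate isomerase, which turns glucose-6-phosphate into fructose-6-phosphate, and gpi.S was the most abundant of the 17 rows in both tissues at 8-cell, 16-cell and 32-cell. In explants gpi.S stood at 207 TPM at 8-cell, 179 at 16-cell, 179 at 32-cell, 183 at blastula, 30.7 at gastrula, 5.07 at early neurula and 5.40 by mid neurula. In progeny it stood at 176, 203, 186, 152, 16.8, 3.80 and 7.03 TPM. The row fell from blastula to gastrula and again to early neurula in both tissues, and was under 2-fold apart between them at all 7 stages. From gastrula to mid neurula its log2 change was -2.31 in explants and -1.15 in progeny. The copy gpi.L also fell in both, to 4.45 TPM in early neurula explants and 4.51 in progeny, against 243 TPM in blastula explants and 166 in blastula progeny. It was higher in explants at 8-cell, at 174 TPM against 79.9 in progeny, and at gastrula, at 54.8 against 25.5, and lower at mid neurula, at 2.09 against 7.12. Both copies together held 46.1% of the summed TPM of the 17 rows in 8-cell explants and 42.3% in 8-cell progeny, and 0.94% and 0.71% at mid neurula.

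Aldolase splits fructose-1,6-bisphosphate into both triose phosphates; aldolase A is the muscle form and aldolase C a brain form in mammals. In explants aldoa.S stood at 16.4 TPM at 8-cell, 15.1 at 16-cell, 16.3 at 32-cell, 22.7 at blastula, 32.8 at gastrula, 44.2 at early neurula and 42.8 by mid neurula. In progeny it stood at 14.0, 15.1, 10.4, 19.5, 21.2, 76.3 and 203 TPM. The tissues were under 2-fold apart up to early neurula, and at mid neurula the log2 difference, explant minus progeny, was -2.22. The copy aldoa.L was at 97.4 TPM in mid neurula explants and 218 in progeny, a log2 difference of -1.16. At the 6 earlier stages it was under 2-fold apart, with 145 TPM in gastrula explants and 79.1 in gastrula progeny. The row aldoc.L peaked at gastrula in both tissues, at 58.7 TPM in explants and 34.2 in progeny, and was at 9.99 and 12.1 TPM at mid neurula.

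Glyceraldehyde-3-phosphate dehydrogenase, the NAD-dependent step, was encoded by copies whose courses parted after gastrula. In explants gapdh.S stood at 25.3 TPM at 8-cell, 12.2 at 16-cell, 13.6 at 32-cell, 14.3 at blastula, 63.0 at gastrula, 52.9 at early neurula and 75.8 by mid neurula. In progeny it stood at 4.75, 7.90, 4.01, 6.98, 43.0, 370 and 675 TPM. Explants were above progeny in all 4 columns before gastrula, by log2 differences of 2.19, 0.56, 1.54 and 0.94, and below in both neurula columns, with log2 differences of -2.78 and -3.14. At mid neurula progeny had 8.90 times the TPM of explants, and gapdh.S was the most abundant of the 17 rows in progeny at both neurula stages.

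The copy gapdh.L shared the early part and not the late one. It was at 66.1 TPM in 8-cell explants and 15.1 in progeny, at 35.7 and 27.1 TPM at 16-cell, at 30.4 and 10.1 at 32-cell and at 31.3 and 17.1 at blastula, with log2 differences of 2.06, 0.38, 1.50 and 0.83. At early neurula it was at 51.4 TPM in explants and 38.4 in progeny, and at mid neurula at 29.0 and 31.9. These were under 2-fold apart. The early excess passed 2-fold for both copies at 8-cell and 32-cell and for neither at 16-cell and blastula, so without the 8-cell explant column it rests on 32-cell. The 2-fold excess of gpi.L in explants before gastrula was seen at 8-cell and at no other stage.

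Enolase makes phosphoenolpyruvate, and enolase 1 is the widespread form in mammals. In explants eno1.L stood at 27.4 TPM at 8-cell, 20.9 at 16-cell, 30.3 at 32-cell, 70.3 at blastula, 146 at gastrula, 35.2 at early neurula and 26.4 by mid neurula. In progeny it stood at 21.0, 22.4, 25.7, 54.8, 69.5, 147 and 548 TPM. From gastrula on the tissues moved in opposite directions, and explants were above progeny at gastrula by 1.06 on the log2 scale and below at early and mid neurula, with -2.03 and -4.32. At mid neurula progeny had 20.8 times the TPM of explants, and 0.36% of all rows had a lower difference. The copy eno1.S fell between gastrula and early neurula in both tissues, to 58.1 TPM in explants, against 188 at gastrula, and to 31.1 TPM in progeny, against 90.5. At mid neurula it was at 47.8 TPM in explants and 56.1 in progeny, under 2-fold apart.

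Pyruvate kinase, the last step, was represented by pkm.L and pkm.S, copies of the gene for the muscle type M enzyme. Both were highest at gastrula and fell by early neurula in both tissues. In explants pkm.L stood at 31.7, 56.2, 80.7, 185, 275, 70.3 and 43.8 TPM from 8-cell to mid neurula, and in progeny at 35.4, 35.5, 65.7, 122, 182, 34.2 and 49.9. It passed 2-fold between the tissues at early neurula alone, with a log2 difference of 1.02, close to the threshold. The copy pkm.S lay between 18.2 and 101 TPM in explants and between 19.3 and 76.7 in progeny and never passed 2-fold between them.

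Lactate dehydrogenase B, in mammals the heart type, came almost wholly from the S copy. In explants ldhb.S stood at 124 TPM at 8-cell, 147 at 16-cell, 172 at 32-cell, 253 at blastula, 481 at gastrula, 237 at early neurula and 192 by mid neurula. In progeny it stood at 125, 129, 146, 209, 321, 138 and 72.6 TPM. Both peaked at gastrula, and explants were higher at mid neurula by 1.39 on the log2 scale. The copy ldhb.L held at most 2.37% of the pair in any column and was never above 5.33 TPM.

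**Figure D3:**
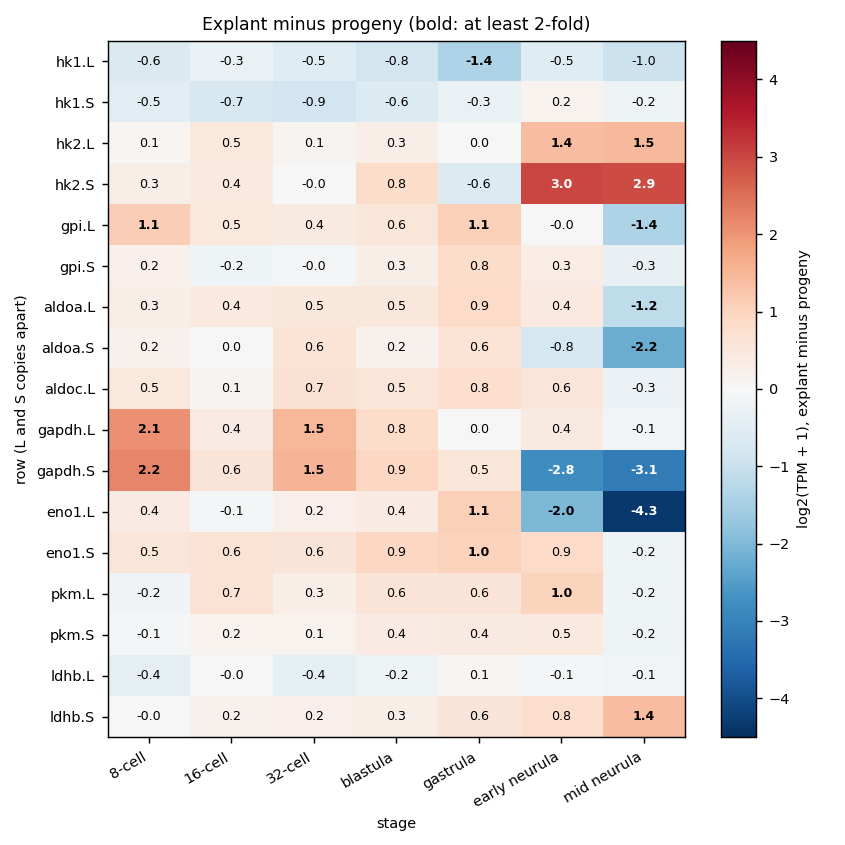
Difference of log2(TPM + 1), explant minus progeny, for each of the 17 rows (down) at each of the 7 stages (across), in red where explants were above progeny and in blue where below; bold values are at least 1 in size. The deepest blue cells are eno1.L at -4.32 and gapdh.S at -3.14 at mid neurula, and the deepest red cells are hk2.S at 3.02 and 2.94.

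Counted over the 17 rows, 3 were higher and 0 lower in explants at 8-cell, gpi.L and both gapdh copies, where 1.90% and 4.16% of all rows were (3.40% and 2.89% with median-of-ratios scaling). None passed at 16-cell or blastula, where 1.09% and 1.43% of all rows were higher and 1.47% and 1.46% lower. At 32-cell the 2 gapdh copies were higher and none lower, against 1.32% and 1.64% of all rows. At gastrula gpi.L, eno1.L and eno1.S were higher and hk1.L lower, against 2.20% and 3.42%. The 3 higher rows lay just past the threshold and fell just short of it with median-of-ratios scaling, at log2 differences of 0.99, 0.97 and 0.96. The median log2 difference of the 17 rows was 0.23, 0.18, 0.23, 0.38 and 0.58 from 8-cell to gastrula, and that of all rows lay between -0.09 and 0.05. With median-of-ratios scaling the 8-cell median of the 17 rows was 0.52.

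At early neurula hk2.S, hk2.L and pkm.L were higher and gapdh.S and eno1.L lower, 3 and 2 of 17, where 10.9% of all rows were higher and 12.9% lower. At mid neurula both hk2 copies and ldhb.S were higher, and eno1.L, gapdh.S, aldoa.S, gpi.L and aldoa.L were lower, 3 and 5 of 17, where 12.0% were higher and 13.6% lower. The median of the 17 rows was 0.41 and -0.24, beside -0.11 and -0.13 for all rows. With median-of-ratios scaling the mid neurula median was -0.11, and with copies summed to 9 genes the medians were 0.18 and -0.84. The summed TPM of the 17 rows was 894 in early neurula explants and 1008 in progeny, and 798 in mid neurula explants and 2001 in progeny. Of the mid neurula sum, gapdh.S and eno1.L held 9.50% and 3.31% in explants and 33.7% and 27.4% in progeny.

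Muscle, neural plate and notochord transcripts were lower in explants at the neurula stages, as were gapdh.S and eno1.L. The 32 muscle marker rows summed to 113 TPM in early neurula explants and 5965 in progeny, and to 375 TPM in mid neurula explants and 12360 in progeny. At gastrula the sums were 19.4 TPM in explants and 267 in progeny, and before it they lay between 7.89 and 22.6 in explants and between 10.7 and 16.1 in progeny. Of 27 rows tested, 23 were lower at early neurula and 27 at mid neurula, where 12.9% and 13.6% of all rows were. At 0 in explants were tpm2.S and myog.L at early neurula and both copies of myog and myoz1 at mid neurula. Neural plate rows were lower in 21 of 21 at early neurula and 19 of 21 at mid neurula, and summed to 418 and 489 TPM in explants and to 2094 and 1427 in progeny. Notochord rows were lower in 13 of 13 and 5 of 13, and summed to 139 and 233 TPM in explants and to 886 and 632 in progeny. No row of these 2 lists was at 0 in a neurula column. Endoderm rows were lower in 10 of 15 and 2 of 15, and cement gland rows in 5 of 7 and 0 of 7. At gastrula 7 of 27 muscle, 6 of 21 neural plate, 7 of 13 notochord and 13 of 15 endoderm rows were already lower. Cement gland rows were lower there in 0 of 7, and 3.42% of all rows were. At that stage explants were above progeny for eno1.L, at 146 TPM against 69.5, and for gapdh.S, at 63.0 against 43.0.

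The genes aldoa, gapdh and eno1 each had a copy that was lower in mid neurula explants. The late difference of their sum therefore restates those rows. The gene gpi also had such a copy, gpi.L, and is left out of the sum. Both gpi copies together fell in progeny, from 42.3 TPM at gastrula to 14.2 at mid neurula. In mid neurula progeny gapdh.S was at 675 TPM and eno1.L at 548, while gapdh.L and eno1.S were under 2-fold apart between the tissues. At gastrula the sum ran the other way, at 630 TPM in explants and 359 in progeny. It was 363 TPM in early neurula explants and 751 in progeny, and 319 TPM in mid neurula explants and 1732 in progeny. The part of muscle, neural plate, notochord or the other tissues in these values was not tested.

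**Figure D4:**
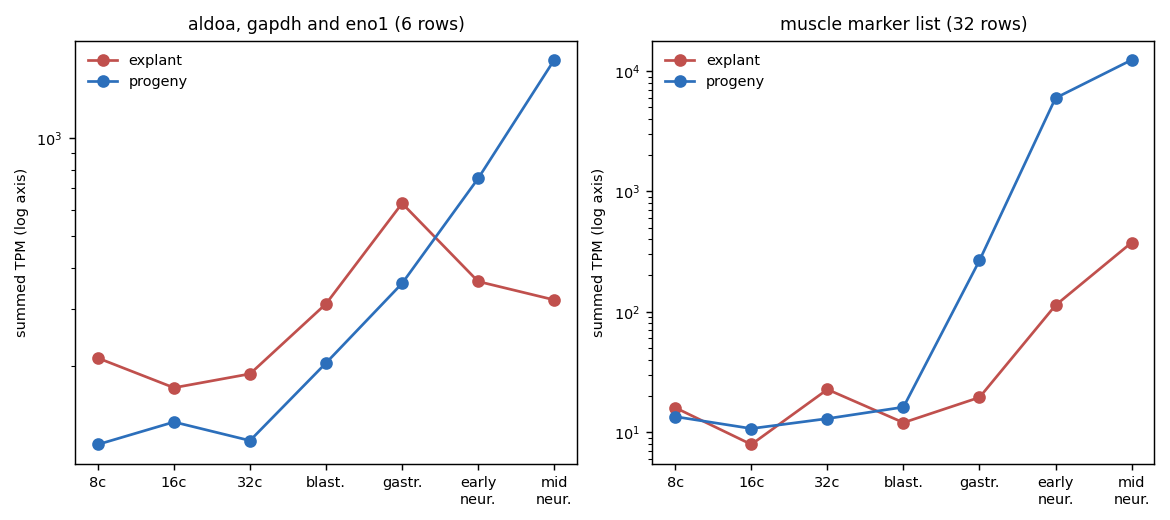
Summed TPM (log axes) by stage of the 6 rows of aldoa, gapdh and eno1 (left) and of the 32 muscle marker rows (right), explants in red and progeny in blue. In progeny the left sum reached 1732 TPM and the right sum 12360 TPM at mid neurula, against 319 and 375 TPM in explants. Each gene on the left had a copy lower in mid neurula explants, which the left difference there restates. The gene gpi, with gpi.L lower too, is not included.

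Within each tissue the rows were also followed over time. During cleavage, from 8-cell to 32-cell, pkm.L rose and gapdh.L fell in explants, 1 row each, where 8.55% of all rows rose and 0.652% fell; with the 16-cell column as the start there were 0 of each, and after scaling by median ratios 0 rows rose and 2 fell, beside 2.54% and 3.43% of all rows. In progeny 0 rows rose and 0 fell, where 1.03% and 0.595% of all rows did (0.44% and 0.97% with that scaling). From 32-cell to blastula eno1 and pkm rose in explants with both copies, 4 of 17 with 0 falls (5.74% and 0.886% of all rows), and both eno1 copies rose in progeny, with 0 falls (2.23% and 0.471%). With median-of-ratios scaling 1 row rose in explants and 0 in progeny, where 1.51% and 0.60% of all rows rose and 1.94% and 0.85% fell.

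From blastula to gastrula, over the onset of zygotic transcription, gpi fell with both copies in both tissues. In explants 4 rows rose, both eno1 copies, gapdh.S and ldhb.L, and 5 fell, both gpi copies, both hk2 copies and hk1.S, where 15.9% and 30.1% of all rows did. In progeny 3 rose, both gapdh copies and eno1.S, and 4 fell, both gpi copies, hk2.L and hk1.S, where 16.9% and 31.0% did. With median-of-ratios scaling, which raised the median change of all rows by 0.33 in each tissue, 11 rows rose and 3 fell in explants, where 21.2% and 19.8% of all rows did, and 8 rose and 3 fell in progeny, where 22.8% and 20.9% did.

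From gastrula to early neurula 3 rows rose in explants, hk1.L and both hk2 copies, and 8 fell, both copies of gpi, eno1 and pkm, aldoc.L and ldhb.S (17.4% and 22.1% of all rows, or 22.3% and 17.2% with median-of-ratios scaling). With that scaling hk1.S rose as well, at 1.12, and ldhb.S, at -0.72, fell short of 2-fold. In progeny 4 rose, gapdh.S, hk1.L, aldoa.S and eno1.L, and 7 fell, both copies of gpi and pkm, aldoc.L, eno1.S and ldhb.S (18.6% and 16.5%). From early to mid neurula both hk1 copies rose in explants with 0 falls (8.09% and 1.34% of all rows), and in progeny hk1.L, hk1.S, eno1.L, aldoa.S and aldoa.L rose, 5 of 17 with 0 falls (8.17% and 1.56%). With median-of-ratios scaling 1 row rose and 2 fell in explants (6.28% and 2.39% of all rows), and 5 rose and 1 fell in progeny (6.09% and 2.76%).

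The change between gastrula and mid neurula in explants minus that in progeny sets both courses against each other. It was at least 2-fold positive for 2 rows, hk2.S at 3.55 and hk2.L at 1.45, and at least 2-fold negative for 8, where 12.4% and 15.5% of all rows were (15.0% and 12.0% with median-of-ratios scaling). The 8 rows were eno1.L at -5.38, gapdh.S at -3.68, aldoa.S at -2.83, gpi.L at -2.47, aldoa.L at -2.03, eno1.S at -1.27, gpi.S at -1.16 and aldoc.L at -1.02. With median-of-ratios scaling gpi.S, at -0.95, and aldoc.L, at -0.80, fell short of 2-fold, and ldhb.S passed it at 1.04. The median was -0.78 over the 17 rows and -0.19 over all rows.

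The L and S copies of 1 enzyme often differed in level, and reads of such similar sequences may have been assigned to either, by a rule that no source used here states. Over the 14 columns ldhb.S was at least 2-fold above ldhb.L in all 14 and hk2.S above hk2.L in 9, while aldoa.L was above aldoa.S in 12 and pkm.L above pkm.S in 9. The gapdh pair crossed over: the S copy held 25.4% of the pair in 16-cell explants and 72.3% in mid neurula explants, and 22.5% in 16-cell progeny and 95.5% in mid neurula progeny. The hk1 pair crossed over too, from low early levels. Its L copy held 15.1% in blastula explants and 85.7% in mid neurula explants, and 25.1% and 90.7% in progeny at these stages. In the eno1 pair the L copy held 68.3% in 8-cell explants and 35.6% in mid neurula explants, and 71.3% in 8-cell progeny, 43.5% in gastrula progeny and 90.7% in mid neurula progeny. At least 2-fold apart in 5 of the 14 columns, the pair had the L copy above in all 5.

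Copies also differed in how far explants were from progeny. At mid neurula the log2 difference of the L copy and that of the S copy were at least 1 apart for 6 of 8 pairs, where 15.7% of all 7202 pairs were, and at early neurula for 4 of 8, where 18.8% were. The pairs at mid neurula were eno1 with -4.32 for L and -0.23 for S, gapdh with -0.13 and -3.14, ldhb with -0.11 and 1.39, hk2 with 1.47 and 2.94, gpi with -1.40 and -0.33, and aldoa with -1.16 and -2.22. At gastrula 1 pair, hk1, was that far apart (5.10% of all pairs), and none was at 8-cell, 16-cell, 32-cell or blastula (8.78%, 3.87%, 3.96% and 4.19%).

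Other rows were ranked by Pearson's r of log2(TPM + 1) with 4 of the rows over the 14 columns, among 16694 rows with a symbol that reached 5 TPM; neighbouring stages share most of their transcripts, and r is given as a description. Closest to hk2.S were cntrl.L, rabl2b.S, spag1.S, ankrd12.S and ccdc67.L, with r of 0.953 to 0.939. Closest to eno1.L were gys1.L at 0.980, epb41l3.L at 0.950, and pou4f1.2.L, capn10-like.L and tnnc2.L at 0.926. Closest to gapdh.S were rnf125.S, wdr83.L, impdh2.L, nmrk2.S and mrc2.S, with r of 0.969 to 0.960. Closest to gpi.S were cnep1r1.L, slc30a9.S, pacs1.L, rassf2.L and ptges.S, with r of 0.998 to 0.997. Among the 17 rows themselves r was highest for pkm.L with pkm.S, at 0.987, and lowest for gpi.L with hk1.L, at -0.908.

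The other genes of the pathway were read at the neurula stages, against the same shares of all rows: 10.9% higher and 12.9% lower in explants at early neurula, and 12.0% and 13.6% at mid neurula. Of 26 tested rows in the list of other glycolytic genes, 6 were higher and 4 lower in explants at early neurula, and 7 were higher and 7 lower at mid neurula. The list also held gckr.L, a regulator of glucokinase, and both copies of pgam5, a protein phosphatase, which are not glycolytic enzymes. Among the rows higher at mid neurula was gckr.L, at 1.83 TPM in explants and 0.13 in progeny. The row pgam2.L, phosphoglycerate mutase of muscle in mammals, was at 0.35 TPM in mid neurula explants and 44.5 in progeny. The row bpgm.L, bisphosphoglycerate mutase, was at 46.9 TPM in explants and 10.5 in progeny, eno4.L at 27.2 and 3.87, and pgam1.L at 1.86 and 12.1. The copies bpgm.S, at 3.01 and 2.75 TPM, and pgam1.S, at 2.54 and 4.89, were under 2-fold apart. Chosen after their values were seen, hkdc1.S, of the hexokinase family, was at 74.1 TPM in mid neurula explants and 30.2 in progeny, while its other copy hkdc1.L was at 14.1 and 20.3, and lower at early neurula, at 9.25 TPM in explants and 29.2 in progeny. Chosen likewise, tpi1.S, triose phosphate isomerase, was at 45.9 TPM in mid neurula explants and 18.3 in progeny, and tpi1.L at 22.5 and 8.66. Phosphofructokinase rows, also chosen so, were lower in explants for pfkp.L, at 69.6 TPM against 157 in progeny, and pfkm.S, at 35.0 against 80.9. The copy pfkm.L was lower too, at 1.36 against 4.42, and pfkp.S was under 2-fold apart, at 1.68 and 0.92.

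Among 19 tested rows of sugar and lactate transport 5 were higher and 5 lower at early neurula and 5 higher and 4 lower at mid neurula, beside 10.9% and 12.9%, and 12.0% and 13.6%, of all rows. The glucose transporter row slc2a12.L was at 106 TPM in mid neurula explants and 26.6 in progeny. Other slc2a rows past 2-fold at mid neurula, named after their values were seen, went both ways. Higher in explants were slc2a2.L, at 234 TPM against 107 in progeny, and slc2a10.S, at 14.9 against 5.32. Lower were slc2a1.L, at 54.3 against 112, slc2a1.S, at 15.0 against 33.3, and slc2a4.L, at 0.50 against 3.49. The copy slc2a2.S ran against slc2a2.L. It was lower in early neurula explants, at 5.66 TPM against 21.8 in progeny, and under 2-fold apart at mid neurula, at 14.9 and 25.1. The monocarboxylate transporter row slc16a1.S was at 24.7 TPM in mid neurula explants and 95.5 in progeny, and its chaperone basigin, bsg.L, at 529 and 181 TPM, with bsg.S at 231 and 59.8. The copy slc16a1.L was under 2-fold apart there, at 30.1 and 60.5 TPM. So was slc16a3.L, of the same transporter family, at 289 TPM in explants and 180 in progeny. Of 19 glycogen rows 3 were lower at early neurula and 6 at mid neurula, with 1 higher at each. The muscle glycogen phosphorylase row pygm.S was at 60.4 TPM in mid neurula explants and 383 in progeny, pygm.L at 21.8 and 138, and the glycogen synthase rows gys1.L and gys1.S at 1.77 and 28.6 and at 4.41 and 47.4.

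Gluconeogenesis had 3 of 9 rows higher at early neurula and 4 at mid neurula, with 0 lower, where 10.9% and 12.0% of all rows were higher. Among those higher at early neurula, pck1.L was at low levels, at 1.34 TPM in explants and 0.018 in progeny. The row fbp1.S, fructose-1,6-bisphosphatase, which opposes phosphofructokinase, was at 256 TPM in mid neurula explants and 58.1 in progeny. At early neurula it was at 178 and 40.6. The copy fbp1.L, named after its values were seen, was at 656 TPM in mid neurula explants and 214 in progeny. It was under 2-fold apart at early neurula, at 229 and 208. The row pc.L, pyruvate carboxylase, was at 87.6 TPM in mid neurula explants and 33.1 in progeny. Its other copy pc.S was under 2-fold apart, at 6.37 and 5.13. The pentose phosphate list had 0 of 13 rows past 2-fold at early neurula and 1 higher at mid neurula. Of 43 rows for regulators and the entry of pyruvate into mitochondria, 4 were higher and 12 lower at early neurula and 5 and 10 at mid neurula, the shares of all rows being those given above. There epas1.S, a hypoxia-inducible factor, was at 113 TPM in mid neurula explants and 10.5 in progeny. The prolyl hydroxylase row egln3.L, of the enzymes that mark such factors for breakdown, was at 9.94 TPM in explants and 52.9 in progeny, and egln2.L at 2.71 and 25.6. The row pfkfb3.L, of an enzyme that sets the level of the activator of phosphofructokinase, was at 24.1 TPM in mid neurula explants and 114 in progeny.

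**Figure D5:**
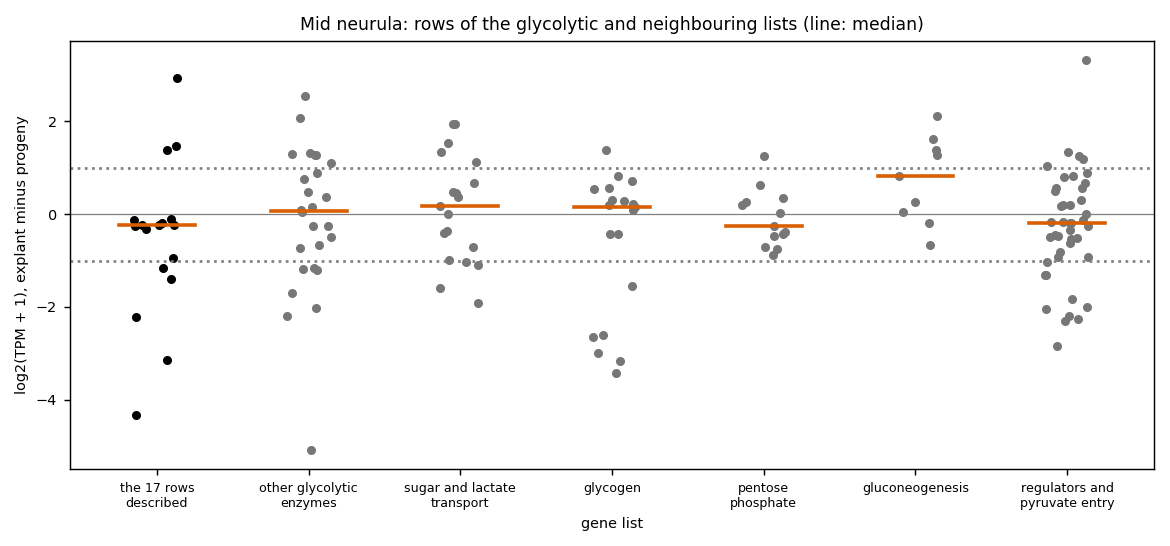
Difference of log2(TPM + 1), explant minus progeny, at mid neurula for the 17 rows (black) and the tested rows of the 6 neighbouring gene lists (grey), with medians as orange lines and dotted lines at 2-fold. The 17 rows spread from -4.32 to 2.94 around a median of -0.24. The gluconeogenesis list had a median of 0.82, the value of pck1.L, at 0.92 TPM in explants and 0.089 in progeny.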

How the data were processed

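The labels list 42 samples, 3 frogs in each of 14 groups. The authors deposited 2 tables, explants and progeny, whose values are TPM per the file headers, with 1 column per stage in which the 3 samples had been combined in a way no source used here describes. Cufflinks, Cuffdiff, Bowtie2 and TopHat appear, with no versions, in the submitters' processing notes; genome build: not given in the sources used here. Columns sum to between 995987 and 999092, which is all that ties the levels of one table to the other. With 1 pooled column per group no test, error or interval could be computed, and replicates left out or a frog block could not be tried; depth is unknown.

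From these, log2(TPM + 1) differences were computed for 18 comparisons with Python 3.11.15, pandas 2.3.3 and numpy 2.4.6. They used rows reaching 1 TPM in at least 1 column of the tissue or tissues compared (26351 for both, 24374 for explants, 25062 for progeny). The code for the calls of explants against progeny was run on simulated abundant rows with little noise and planted changes well past 2-fold. Such changes are bound to be found, so this checks the code and not the error of the real values. Alternatives were pseudocounts of 0.1 and 5, no filter or one of 5 TPM, median-of-ratios scaling, summed copies and a 16-cell start. The 17 rows, pathway lists and marker lists were chosen with earlier results of these data known. Rows of neighbouring lists were named by rule: at most 4 per list, past 2-fold on the mean of both neurula stages, at least 5 TPM, by size. Row names are those of the tables; 16 of the 17 are also symbols in RefSeq's table of assembly Xenopus_laevis_v10.1.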

Additional observations from a re-analysis of the deposited data

Results flagged for a closer look

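The row eno1.L moved in opposite directions in the tissues, each by more than 2-fold. Between gastrula and mid neurula its log2(TPM + 1) changed by -2.42 in explants and by 2.96 in progeny, a difference of -5.38. With 1 pooled value per group this difference was not tested.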

How the results depend on the processing

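No paired analysis was possible because the deposited columns pool the 3 frogs of a group, and for the same reason no frog could be left out. Counts of the 17 rows higher or lower, risen or fallen, and of copy pairs 2-fold apart in level from gastrula on were recomputed. They stayed within 1.5 times of those of the setting used above in 207 of 250 cases. The filter settings, with 42 of these counts each, could move almost nothing. All 17 rows reached 1 TPM, and only ldhb.L in progeny stayed under 5 TPM. No row called past 2-fold changed sign under the alternatives that kept the copies apart. Signs were not compared with summed copies. The eno1 copies in progeny summed to 160 TPM at gastrula and 178 at early neurula, while eno1.S fell. The cause of the 43 counts that moved was not tested, except that summing copies leaves 9 genes in place of 17 rows. Counts not given below stayed within 1.5 times and need not be 0. With summed copies, explant against progeny gave 1 higher at 8-cell (1.95% of all summed rows), 1 at 32-cell (1.32%) and 1 at gastrula (2.21%). At early neurula 1 was higher and 1 lower (11.6% and 12.4%), and at mid neurula 3 were lower (13.0%). Summed hk2 and ldhb were higher at mid neurula, by 2.62 and 1.37 on the log2 scale (12.8% of all summed rows were higher). The change from gastrula to mid neurula gave 1 positive and 5 negative (13.2% and 14.7%). Over time in explants, summed copies gave 2 rises to blastula (5.43%) and 2 rises and 3 falls to gastrula (16.6% and 29.0%). They also gave 5 falls to early neurula (22.0%) and 1 rise to mid neurula (8.36%). In progeny they gave 1 rise to blastula (2.02%) and 1 rise and 1 fall to gastrula (17.6% and 30.3%). To early neurula there were 2 rises and 4 falls (17.5% and 16.8%), and to mid neurula 3 rises (8.49%). Median-of-ratios scaling gave 0 higher at gastrula in explants against progeny (1.80% of all rows). In explants it gave 0 rises and 2 falls to 32-cell (2.54% and 3.43%) and 1 rise to blastula (1.51%). To gastrula there were 11 rises and 3 falls (21.2% and 19.8%), and to mid neurula 1 rise and 2 falls (6.28% and 2.39%). In progeny this scaling gave 0 rises to blastula (0.60%), 8 rises to gastrula (22.8%) and 1 fall to mid neurula (2.76%). It shifted the median of all rows by at most 0.10 between the tissues at 1 stage, and by -0.20 to 0.33 over time. The median of the 17 rows moved further in places. For explants against progeny at 8-cell it went from 0.23 to 0.52. In explants from 8-cell to 32-cell it went from 0.19 to -0.32, and in progeny from blastula to gastrula from 0.55 to 0.91. The scaling factors were 0.789 in 8-cell explants and 0.964 in 8-cell progeny, and 1.44 and 0.999 in blastula and gastrula explants. A pseudocount of 0.1 TPM gave 2 lower at 8-cell (10.8% of all rows) and 1 lower at 32-cell (4.73%). At blastula it gave 1 higher and 1 lower (4.24% and 4.06%). In explants it gave 3 rises to 32-cell (16.8%) and 1 fall to mid neurula (3.36%). A pseudocount of 5 TPM gave 0 lower at gastrula (1.47% of all rows) and 1 rise to mid neurula in explants (2.65%). In progeny it gave 1 rise to blastula (0.53%) and 2 falls to gastrula (21.6%). With the 16-cell start explants had 0 rises and 0 falls (0.22% and 0.09% of all rows) and progeny 1 fall to 32-cell (0.20%). The unknown depth limits all values, most of all those near 1 TPM, such as hk1 before the neurula and ldhb.L.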
